A study of Sus scrofa with 20 samples.

Results

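The genes described here are 9 genes of vitamin A handling: BCO1, RBP4, TTR, STRA6, LRAT, DHRS3, ALDH1A1, ALDH1A2 and CRABP1. They were picked by gene name from the 25764 rows of a table of normalized counts, and every one had a row. All 9 passed the low-value filter, which asked for 2 or more libraries with 10 or more normalized counts. STRA6 passed it only through libraries of biliary tree cells. The 9 genes were chosen by the measured difference between biliary tree cells and liver cells. BCO1 is among the genes with the lowest values in the biliary tree cells relative to liver. For that difference the values, the fitted difference with its standard error and the count past the thresholds are given as a description, with no p-value, whereas the liver sorts, the storage numbers of the libraries and the other genes of the pathway, which the choice did not use, were tested.

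Poly(A) RNA of 20 pig libraries was sequenced, in 6 groups. Porcine biliary tree stem cells (pBTSCs) were prepared from piglets 1 or 2 days old. The labels name the gallbladder as their tissue, and the methods the gallbladder with extrahepatic ducts. Of the 5 pBTSC libraries, S2, S7 and S11 came from H2B-GFP piglets (a line with a histone fused to green fluorescent protein), and S15 and S20 from wild-type piglets. The study reports a lower RNA integrity number for S2, S7 and S11 than for S20, and none for S15. It lists none for the liver libraries. The 15 liver libraries held sorted cells: 4 of CD45-/EpCAM+ cells (S4, S9, S13, S19), 2 of CD45-/EpCAM- cells (S5, S14), 5 of CD45+ cells (S3, S8, S12, S18, S23), 2 of CD31+ cells (S16, S21) and 2 of CD146+ cells (S17, S22). CD45 marks blood cells, EpCAM epithelial cells and CD31 endothelial cells. In its organoids the study used CD31 for precursors of endothelium, and CD146 with ICAM-1 for precursors of stellate cells. CD146 is not taken here as the marker of 1 cell type. The numbers are the libraries' storage numbers, and they fall into 5 runs, each a pBTSC library followed by liver libraries (S2 to S5, S7 to S9, S11 to S14, S15 to S19 and S20 to S23). Which animal gave each liver library is not stated in the sources used here, so p-values measure only the spread between these libraries, and libraries of 1 run may share an animal.

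Depth was estimated at 21100000 to 78200000 reads for 17 libraries and at 796000, 1560000 and 454000 for S13, S15 and S22, where 3 reads were worth 77.6, 37.8 and 157 normalized counts. In the 17 deeper libraries 3 reads were worth at most 4.31, and these floors cover counting error only. Hepatocyte genes were abundant in every liver sort: the summed level of 8 hepatocyte markers lay between 1099709 and 2872428 normalized counts in all 15 liver libraries, those sorted as CD45+, CD31+ and CD146+ included, against 25074 to 73956 in the pBTSC libraries. All 8 were lower in each pBTSC library than in each liver library, and none was at 0. Leukocyte and cholangiocyte markers were not highest in the sorts named for them. Leukocyte markers summed to a median of 1408 in CD45+, 2126 in CD45-/EpCAM+ and 2461 in CD45-/EpCAM- cells. Cholangiocyte markers summed to a median of 9614 in CD45+ and 7940 in CD45-/EpCAM+ cells. Endothelial markers had medians of 102831 in CD31+, 96760 in CD146+ and 98242 in CD45+ cells. In such mixtures fewer cells of a type and less RNA per cell cannot be told apart.

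Vitamin A reaches cells as carotenoids or as retinol. BCO1 cleaves beta-carotene to retinal, RBP4 carries retinol in plasma in a complex with transthyretin (TTR), and STRA6 is a membrane receptor for RBP4. LRAT joins retinol to fatty acids for storage, which in the liver takes place mainly in stellate cells, DHRS3 reduces retinal back to retinol, ALDH1A1 and ALDH1A2 oxidise retinal to retinoic acid, and CRABP1 binds retinoic acid in the cytoplasm. Retinoic acid then acts through the nuclear receptors RAR and RXR and is broken down by CYP26 enzymes.

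The pBTSC libraries held low levels of the genes for carotenoid cleavage, plasma carriage and retinol storage. STRA6, the RBP4 receptor gene, was at a low but detected level, and DHRS3 at levels that overlap those of liver. ALDH1A2 lay within the liver range in S2 and S7, close to its upper end in S15, and above it in S11 and S20. BCO1, RBP4, TTR, LRAT and ALDH1A1 were lower in each of the 5 pBTSC libraries than in each of the 15 liver libraries, which is 5 of 9 genes where 9.21% of the 15576 genes tested had the same separation. With limma, 7 of the 9 passed the thresholds (adjusted p under 0.05 and more than 2-fold) against CD45-/EpCAM+ cells, where 25.1% of all genes did (14.8% higher and 10.3% lower in pBTSCs), and 7 of 9 against CD45-/EpCAM- cells, where 36.6% did (20% higher and 16.6% lower). Against CD45+ cells 7 of 9 passed (20.6% of all genes), and 6 of 9 passed against CD31+ (14.4%) and CD146+ cells (22.2%). STRA6, which passed the low-value filter only through pBTSC libraries, was the gene higher in pBTSCs against both CD45- sorts. BCO1, RBP4, TTR, LRAT, ALDH1A1 and CRABP1 were lower, and DHRS3 and ALDH1A2 did not pass. These genes were chosen with that contrast known, and nothing is read from these counts.

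**Figure D1:**
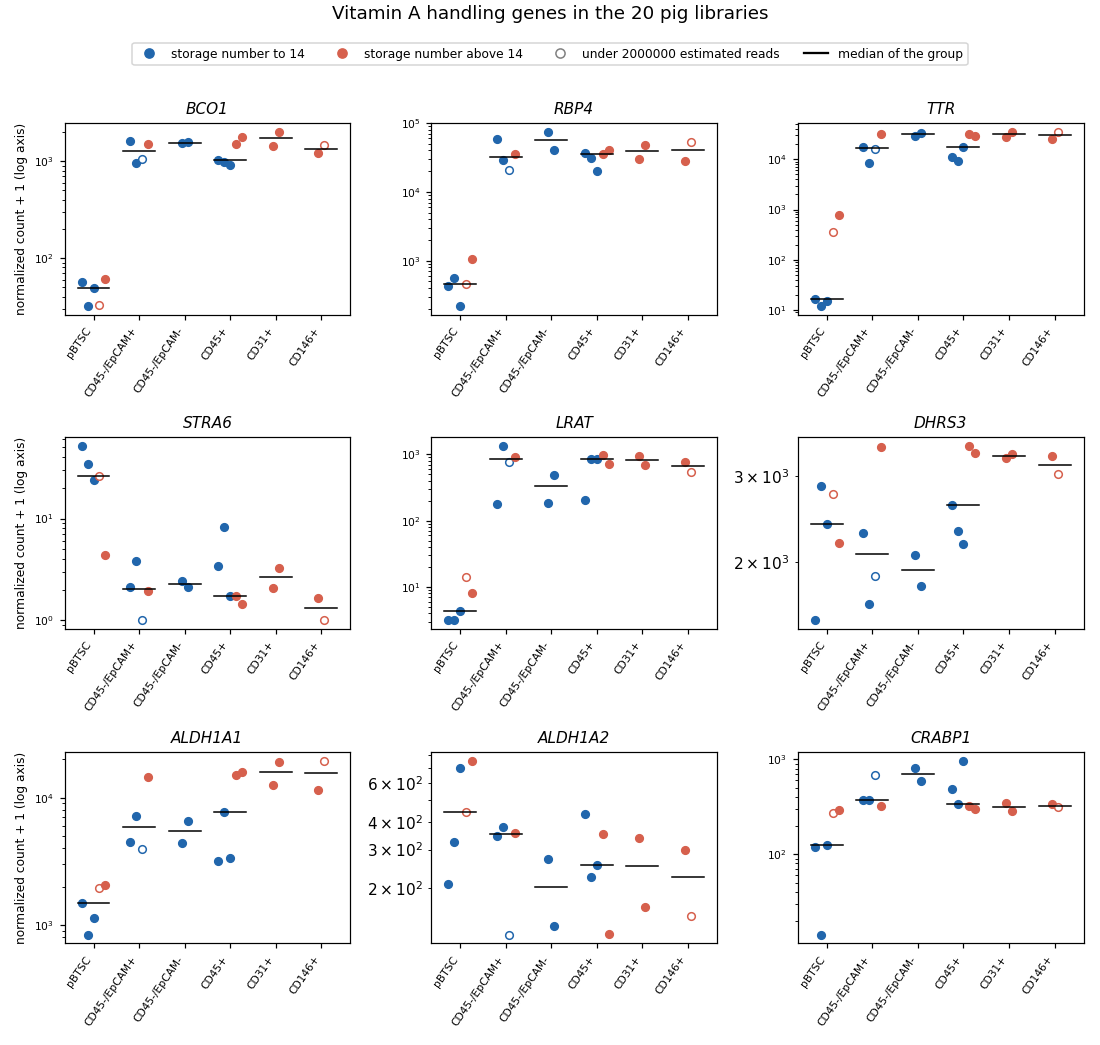
Normalized count + 1 (log axis) of the 9 genes in each library, by group. Points are libraries, coloured by storage number, open where the estimated depth was under 2000000 reads, and bars are group medians. BCO1 lay between 31.1 and 59.1 in pBTSC libraries and between 901 and 2009 in liver libraries.

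BCO1, the carotenoid cleavage enzyme, stood at 56.2, 31.1, 48.1, 32.2 and 59.1 normalized counts in the pBTSC libraries S2, S7, S11, S15 and S20. The value in S15 rests on fewer than 3 reads. The liver values lay between 901 and 2009 (median 1470), so that the medians differed 30.5-fold and the groups were far from overlapping. Fitted on log2(normalized count + 1), the scale of all log2 differences given here, pBTSCs minus CD45-/EpCAM+ cells was -4.81 (SE 0.25) and pBTSCs minus CD45-/EpCAM- cells -5.11 (SE 0.31). Against CD45+, CD31+ and CD146+ cells it was -4.73, -5.24 and -4.91.

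BCO1 was also the member whose difference varied least between runs. The mean log2 difference between a pBTSC library and the liver libraries of its own run lay between -5.41 and -4.54 across the 5 runs. Within the liver its highest value was 2.23 times its lowest. By sort, its median was 1284 in CD45-/EpCAM+, 1546 in CD45-/EpCAM-, 1038 in CD45+, 1718 in CD31+ and 1346 in CD146+ cells. The ranges of neighbouring sorts in that order overlap, except that both CD45-/EpCAM- libraries lay above both CD146+ libraries.

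RBP4, the plasma carrier of retinol, stood at 436, 562, 220, 453 and 1045 normalized counts in S2, S7, S11, S15 and S20, and at 20268 to 74867 in the liver libraries, with a median of 35562. S20 was the highest of the pBTSC libraries, yet it lay far under the lowest liver library. The log2 difference was -6.11 (SE 0.39) against CD45-/EpCAM+ and -6.83 (SE 0.49) against CD45-/EpCAM- cells, and from -6.95 to -5.50 across the runs. Among liver libraries the 2 highest values were those of S5 and S4, 74867 and 57858.

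TTR, the partner of RBP4 in plasma, fell into separate ranges within the pBTSCs. It stood at 15.9, 11.1 and 14.02 normalized counts in S2, S7 and S11 and at 352 and 792 in S15 and S20. Liver values lay between 8551 and 35260 (median 27175). The log2 difference against CD45-/EpCAM+ cells was -8.09, with the widest standard error of the 9 genes (0.99), and it was -8.99 (SE 1.24) against CD45-/EpCAM- cells. By run it was -10.07, -9.53 and -10.43 in the runs of S2, S7 and S11 and -6.36 and -5.39 in those of S15 and S20.

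Hepatocyte markers differed between the same pBTSC libraries. ALB, the gene of albumin, stood at 376, 287 and 288 normalized counts in S2, S7 and S11 and at 19832 and 25087 in S15 and S20. Of the 8 hepatocyte markers, 7 were higher in both S15 and S20 than in any of the other 3 pBTSC libraries, APOA1 being the exception, and their sum was 25074 to 28905 in those 3 and 54174 and 73956 in S15 and S20. Their part in the TTR values was not tested. Piglet line differs between the same libraries, as does RNA integrity where reported. Other markers differed between the same libraries too. Fibroblast and smooth muscle markers summed to 1374662 and 1388907 in S15 and S20 against 340512 to 803586 in the other 3, with 4 of 5 higher without overlap and 1 lower. In the same way 3 of 4 leukocyte and 3 of 5 macrophage markers were higher, and 2 of 5 cholangiocyte markers lower. The share of all genes that separated these libraries without overlap was not counted, so nothing is read from these marker counts. The part of all these markers was not tested. BCO1 was at 32.2 and 59.1 in S15 and S20 and at 31.1 to 56.2 in the other 3, so that these values overlapped, that of S15 resting on fewer than 3 reads.

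**Figure D2:**
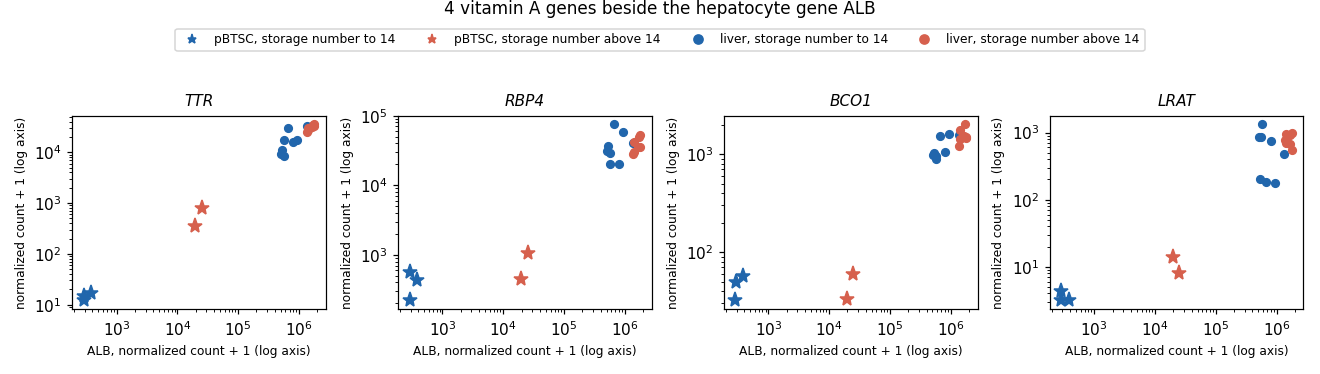
Normalized count + 1 of TTR, RBP4, BCO1 and LRAT (y, log axes) against that of ALB (x, log axis) in the 20 libraries, with stars for pBTSC and circles for liver. TTR stood at 352 and 792 in the pBTSC libraries with ALB at 19832 and 25087 and at 15.9 or less in the other 3, whereas BCO1 showed no such step.

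STRA6, the RBP4 receptor gene, was the member with higher values in pBTSCs. It stood at 50.4, 33.6, 22.9, 25.1 and 3.35 normalized counts in S2, S7, S11, S15 and S20. The value in S15 lies under the floor of 3 reads. In the liver it reached 7.28 in the CD45+ library S8, about 10.1 reads, and was at most 2.82 in the other 14 libraries. S20 therefore lay below the highest liver library, and the other 4 pBTSC libraries lay above all of liver. S13 and S22 listed STRA6 at 0, at depths where 3 reads were worth 77.6 and 157 normalized counts.

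The log2 difference of STRA6 was 3.45 (SE 0.69) against CD45-/EpCAM+ and 3.26 (SE 0.86) against CD45-/EpCAM- cells. It depended on the value added before the logarithm: with 10 in place of 1 it was 1.57 and 1.56. Without the 3 shallow libraries it was 3.05 (SE 0.77) and 3.19 (SE 0.88). Under a filter of 50 or more normalized counts in 4 or more libraries STRA6 was not tested.

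LRAT, the enzyme of retinol storage, was close to the limit of detection in pBTSCs. The values were 2.14, 2.20, 3.33, 13.2 and 7.03 normalized counts in S2, S7, S11, S15 and S20, where S15 corresponds to about 1.05 reads and the other 4 to between 5.25 and 14.51 reads. Liver values lay between 176 and 1323 (median 754). The log2 difference was -6.86 (SE 0.60) against CD45-/EpCAM+ and -5.76 (SE 0.75) against CD45-/EpCAM- cells. With 10 added before the logarithm it was -5.42 and -4.35.

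In the liver LRAT values were close within a run of storage numbers. LRAT stood at 204, 176 and 181 normalized counts in S3, S4 and S5, at 855 and 1323 in S8 and S9, at 851, 754 and 485 in S12, S13 and S14, at 955, 773, 983 and 918 in S16 to S19, and at 678, 546 and 702 in S21 to S23. The CD45+, CD45-/EpCAM+ and CD45-/EpCAM- libraries of the first run were thus all below every later liver library. Within a run the highest value was at most 1.76 times the lowest, whereas over the liver it was 7.51 times. In pBTSCs the sum of 8 stellate cell and pericyte markers was 34742 to 45538 normalized counts, against 10220 to 45425 in liver. Single markers went both ways. DES and HAND2 were higher in every pBTSC library than in every liver library. ECM1 stood at 1100 to 3077 against 2415 to 13493 in liver, and HGF at 575 to 763 against 467 to 2967. RELN and NGFR also reached higher values in liver, RGS5 and PDGFRB in pBTSCs. The part of stellate cells in the LRAT values was not tested.

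**Figure D3:**
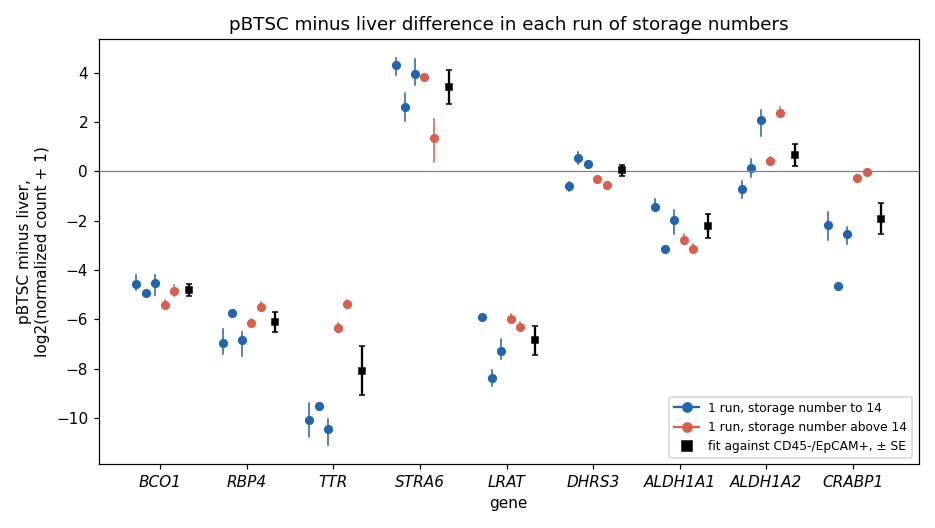
Difference between the pBTSC library and the liver libraries of its own run, on log2(normalized count + 1), for each of the 9 genes. Circles are the mean over the run's liver libraries, thin lines span them, and black squares give the fitted difference against CD45-/EpCAM+ cells with its standard error. BCO1 stayed between -5.41 and -4.54, while TTR went from -10.43 to -5.39 and CRABP1 from -4.66 to -0.03.

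DHRS3, which reduces retinal to retinol, had similar levels in both tissues. It stood at 1524, 2855, 2388, 2751 and 2186 normalized counts in S2, S7, S11, S15 and S20 and at 1643 to 3443 in liver, with a median of 2611. The ranges overlapped, and the log2 difference was 0.04 (SE 0.21) against CD45-/EpCAM+ and 0.25 (SE 0.27) against CD45-/EpCAM- cells. By run it was negative in 3 and positive in 2. The difference against CD45-/EpCAM+ changed sign between settings, from -0.10 to 0.35.

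The retinoic acid synthesis enzymes differed in pattern. ALDH1A1 stood at 1478, 837, 1128, 1944 and 2068 normalized counts in S2, S7, S11, S15 and S20, against 3192 to 19551 in liver with a median of 7680, and the groups did not overlap. The log2 difference was -2.22 (SE 0.49) against CD45-/EpCAM+ and -1.92 (SE 0.61) against CD45-/EpCAM- cells, and it was negative in all 5 runs, from -3.15 to -1.43. Without S5 or without S14 the difference against CD45-/EpCAM- cells no longer passed. ALDH1A2 stood at 209, 324, 698, 443 and 756 normalized counts, and at 123 to 435 in liver with a median of 271. S11 and S20 lay above every liver library, and S2 and S7 within the liver range. S15 stood at 443, on about 35.2 reads, close to the highest liver value of 435. In S15 3 reads were worth 37.8 normalized counts, so its place above liver is not settled. The ALDH1A2 difference was 0.67 (SE 0.46) against CD45-/EpCAM+ and 1.19 (SE 0.57) against CD45-/EpCAM- cells. By run it went from -0.72 (S2) and 0.16 (S7) to 2.11 (S11) and 2.38 (S20).

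CRABP1, the cytoplasmic retinoic acid binding protein, stood at 118, 13.2, 126, 274 and 293 normalized counts in S2, S7, S11, S15 and S20. Liver values lay between 284 and 971 (median 342). S7 was the lowest of all libraries, and S20 lay above the lowest liver library, the CD31+ library S21. The log2 difference was -1.91 (SE 0.64) against CD45-/EpCAM+ and -2.65 (SE 0.80) against CD45-/EpCAM- cells. Against CD31+ and CD146+ cells, -1.49 (SE 0.80) and -1.55 (SE 0.80), it did not pass the thresholds, and without S13 it no longer did against CD45-/EpCAM+ cells, nor without S5 against CD45-/EpCAM- cells. It also did not pass against CD45-/EpCAM+ cells after rescaling to the same total, nor against either CD45- sort in a fit of those 2 groups alone.

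The other genes of the pathway were tested between pBTSCs and the CD45- liver sorts. Of 40 such genes analysed here, 34 passed the filter. Over the liver libraries alone 33 passed it, and over the pBTSC libraries alone 32. For a gene that passes only through 1 tissue the direction is largely set by the filter. With limma and Benjamini-Hochberg adjustment over all genes, 17 of the 34 differed from CD45-/EpCAM+ cells (7 higher and 10 lower in pBTSCs, median difference of the 34 -0.05), and 18 differed from CD45-/EpCAM- cells (7 higher and 11 lower, median -0.22). Over all genes 25.1% and 36.6% were called, with a median difference of 0.08 and 0.04. When every library was rescaled to the same total, the split became 9 higher and 7 lower against CD45-/EpCAM+ and 8 higher and 7 lower against CD45-/EpCAM- cells, and with the same upper quartile 8 and 7, and 7 and 9. The comparisons share the pBTSC libraries. Between the same groups fibroblast and smooth muscle markers summed to 340512 to 1388907 normalized counts in pBTSCs against 30671 to 149862 in liver (4 of 5 higher in pBTSCs without overlap), cholangiocyte markers to 16017 to 57590 against 2641 to 11602 (1 of 5), and macrophage markers to 3436 to 9086 against 24894 to 102613 (4 of 5 lower). Without overlap 9.21% of all genes were lower in pBTSCs. The share of all genes higher without overlap is not given here, so nothing is read from the counts of higher markers. The part of these cell types, and of hepatocytes, in the pathway differences was not tested.

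Of the retinoic acid binding proteins other than CRABP1, FABP5 and CRABP2 rose against both sorts, the CRABP2 calls depending on the setting. FABP5, which delivers retinoic acid and fatty acids within cells, stood at 8543, 8553, 9372, 8905 and 8197 normalized counts in S2, S7, S11, S15 and S20, and at 481 to 2283 in liver. The log2 difference was 2.94 (SE 0.23, limma adjusted p = 5.1e-08) against CD45-/EpCAM+ and 3.93 (SE 0.28, adjusted p = 5.6e-08) against CD45-/EpCAM- cells. CRABP2 was higher by 3.41 (SE 1.05, limma adjusted p = 0.0162) and 3.48 (SE 1.31, adjusted p = 0.0360), with 61.8 to 201 normalized counts in pBTSCs and 0 to 49.5 in liver. Its call was lost against CD45-/EpCAM+ cells without S13, and against CD45-/EpCAM- cells without any 1 of S5, S11, S14 and S15. Against CD45-/EpCAM- cells it was also lost with runs of storage numbers as a block (2.72, limma adjusted p = 0.0664), with storage range as a term (2.97, adjusted p = 0.0732), with 0.1 added before the logarithm (adjusted p = 0.151) and with no filter on low values (adjusted p = 0.0503).

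Of the 6 nuclear receptor genes, RARG and RXRG rose against both sorts and RXRA fell against both. RXRG stood at 117 to 272 normalized counts in pBTSCs and at most 17.04 in liver, a log2 difference of 4.68 (SE 0.81, limma adjusted p = 0.000220) against CD45-/EpCAM+ cells. RXRG passes the low-value filter on pBTSC libraries alone. Its liver values were near or under the limit of 10 normalized counts, so little is read from its direction. Its call against CD45-/EpCAM- cells was lost with 0.1 added before the logarithm (4.29, limma adjusted p = 0.0519). RARG was higher by 1.18 (SE 0.22, limma adjusted p = 0.000351) against CD45-/EpCAM+ and by 2.25 (SE 0.27, adjusted p = 5.3e-06) against CD45-/EpCAM- cells. RXRA was lower, with -1.10 (SE 0.17, limma adjusted p = 6.7e-05) and -1.06 (SE 0.21, adjusted p = 0.000614), and RARB fell against CD45-/EpCAM+ cells (-1.20, SE 0.40, limma adjusted p = 0.0252) and did not pass against CD45-/EpCAM- cells. Both calls against CD45-/EpCAM+ cells were lost when libraries were rescaled to the same total or upper quartile, without the 3 shallow libraries and without S13. The RXRA call was also lost with array weights and, against CD45-/EpCAM- cells, under both rescalings, with runs of storage numbers as a block (-0.99, under the fold threshold) and without S14 or S20, and the RARB call without S9 or S19. RARA and RXRB did not pass.

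Enzymes and carriers gave calls in both directions. BCO2, the other carotenoid cleavage enzyme, fell with a log2 difference of -2.28 (SE 0.39, limma adjusted p = 0.000179) against CD45-/EpCAM+ cells, and its values were 63.5 to 114 normalized counts in pBTSCs and 212 to 915 in liver. ALDH8A1, which oxidises 9-cis-retinal, fell by 6.68 on the log2 scale (SE 0.66, limma adjusted p = 6.4e-07), from 185 to 919 in liver to 0.45 to 18.2 in pBTSCs. ALDH1A3, another retinal dehydrogenase, rose against CD45-/EpCAM- cells by 1.54 (SE 0.33, limma adjusted p = 0.00106) and did not pass against CD45-/EpCAM+ cells. Among retinol dehydrogenases and retinal reductases, RDH16 and DHRS4 fell against both sorts, with -4.43 (SE 0.56, limma adjusted p = 1.04e-05) for RDH16 and -2.48 (SE 0.22, adjusted p = 2.25e-07) for DHRS4 against CD45-/EpCAM+ cells. DHRS9 rose against CD45-/EpCAM+ cells, by 3.42 (SE 0.65, limma adjusted p = 0.000495), a call lost under the filter of 50 or more normalized counts in 4 or more libraries. ADH5 fell against CD45-/EpCAM- cells (-1.28, SE 0.27, limma adjusted p = 0.000946), a call lost without S5 and after rescaling to the same total (-0.80, under the fold threshold).

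Of the 6 genes of retinyl ester synthesis and hydrolysis, DGAT1, LIPA and PNPLA3 fell and LPL rose against both sorts, and PNPLA2 and LIPE did not pass. The DGAT1 call was lost without S4 against CD45-/EpCAM+ cells and after rescaling to the same total against both sorts. Against CD45-/EpCAM+ cells it was also lost after rescaling to the same upper quartile. The PNPLA3 call against CD45-/EpCAM- cells was lost without S5 and with 0.1 added before the logarithm (limma adjusted p = 0.0565). LPL, lipoprotein lipase, stood at 108 to 1384 normalized counts in pBTSCs and 2.48 to 68.3 in liver, a log2 difference of 3.98 (SE 0.77, limma adjusted p = 0.000563) against CD45-/EpCAM+ cells. Of the retinoic acid response genes, RARRES2 fell against both sorts and TGM2 rose against CD45-/EpCAM- cells (1.64, SE 0.40, limma adjusted p = 0.00297), a call lost without S5. RBP7, a cellular retinol binding protein, rose against CD45-/EpCAM+ cells (2.42, SE 0.83, limma adjusted p = 0.0286), a call that was lost without any 1 of S11, S13, S15 and S20. The RBP7 call was also lost with 0.1 added before the logarithm (limma adjusted p = 0.0773) and under the filter of 50 or more normalized counts in 4 or more libraries. RBP5 fell against CD45-/EpCAM- cells (-1.05, SE 0.41, limma adjusted p = 0.0407), a call that was lost in 6 of the 7 fits that left out 1 library of the groups compared, with no filter, under both rescalings, without the shallow libraries, with array weights and with storage range as a term.

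**Figure D4:**
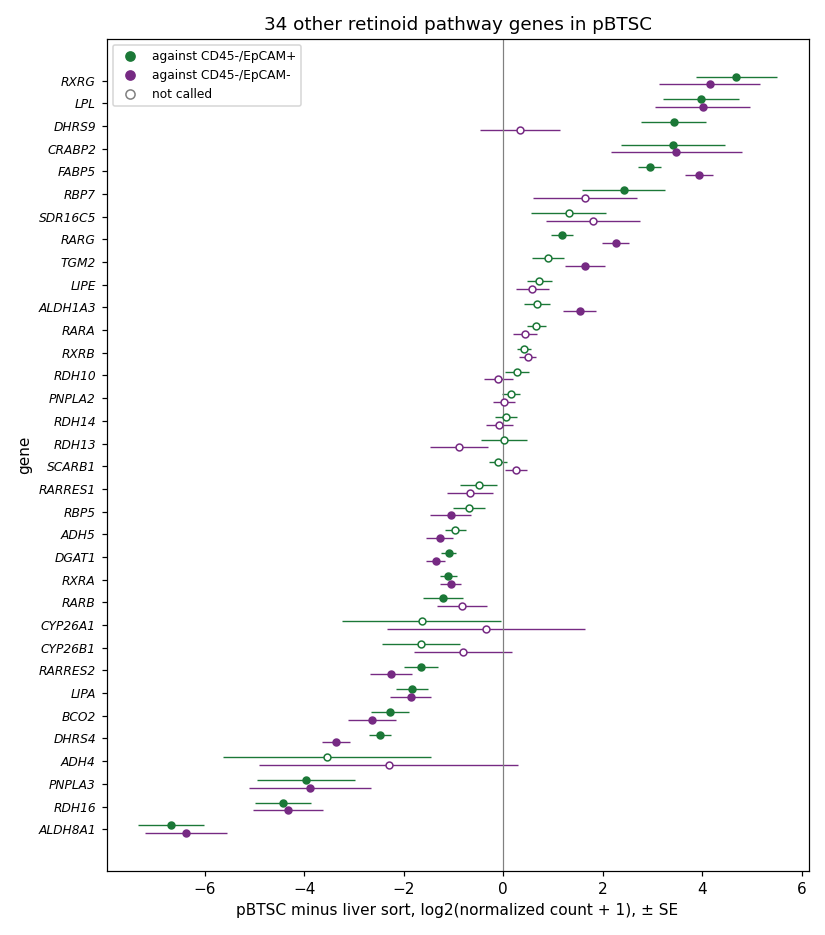
Log2 difference of pBTSCs against CD45-/EpCAM+ and CD45-/EpCAM- cells for 34 other retinoid pathway genes, with standard errors; filled points passed the thresholds (adjusted p under 0.05 and more than 2-fold). FABP5, RXRG, LPL and CRABP2 lay to the right and ALDH8A1, RDH16 and PNPLA3 to the left in both comparisons.

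The liver sorts, taken by their labels, did not separate the 9 genes. Between CD45-/EpCAM+ and CD45-/EpCAM- cells, where 2.80% of genes were called, 0 of 9 were, by limma, with 0 of the 9 at an unadjusted p under 0.05. Their log2 differences lay between -0.90 (TTR, SE 1.28, limma adjusted p = 0.734) and 1.10 (LRAT, SE 0.78, adjusted p = 0.433). RARG, named after its value was seen, was the pathway gene called there (1.07, SE 0.28, limma adjusted p = 0.0443). Between CD45+ and CD45-/EpCAM+ cells limma called 0 of 15576 genes (0%), with 214 at an unadjusted p under 0.05. The 9 genes differed by -0.10 to 0.39, each with a limma adjusted p of 1. Between the endothelial sorts (CD31+ and CD146+) and CD45-/EpCAM+ cells limma also called 0 genes (0%), with 2545 at an unadjusted p under 0.05, among them ALDH1A1 (1.21, SE 0.52, limma adjusted p = 0.288) and DHRS3 (0.54, SE 0.23, adjusted p = 0.286). All 4 CD31+ and CD146+ libraries, and 1 of the 4 CD45-/EpCAM+ libraries, have storage numbers above 14. With standard errors of this size, a difference of 2-fold in TTR or LRAT between sorts could not have been detected.

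The liver libraries were then compared by storage number. The 7 liver libraries above storage number 14 were compared with the 8 up to 14, with the sort as a term. The ranges were set with an earlier result on the gene AFP known. In pBTSCs the same ranges coincide with the piglet lines, and RNA integrity, where reported, differs along the same split. Line, storage range and RNA integrity therefore cannot be told apart there. In the liver the comparison rests on the CD45+ and CD45-/EpCAM+ libraries, since the other sorts lie in only 1 range. Limma called 564 of 14910 genes (3.78%, and 2.27% in the upward direction) and 2 of the 8 members tested, both upward, STRA6 being under the filter.

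ALDH1A1 was higher in the liver libraries above storage number 14 than in those up to 14, without a steady rise between runs. It stood at 3192 to 4515 normalized counts in S3 to S5, at 7172 and 7680 in S9 and S8, at 3340 to 6514 in S12 to S14, at 11421 to 15062 in S16 to S19 and at 15815 to 19551 in S21 to S23. The 2 ranges did not overlap, and the log2 difference was 1.71 (SE 0.32, limma adjusted p = 0.0105). TTR was higher by 1.31 (SE 0.27, limma adjusted p = 0.0164), with 25344 to 35260 normalized counts above storage number 14 and 8551 to 32529 up to 14. The CD45-/EpCAM- libraries S5 and S14, at 29601 and 32529, lay within the upper range.

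DHRS3 stood at 1643 to 2611 normalized counts up to storage number 14 and at 3026 to 3443 above it. These did not overlap, and the log2 difference of 0.64 (SE 0.13, limma adjusted p = 0.0152) was under the 2-fold threshold. BCO1 (0.60, SE 0.18, limma adjusted p = 0.0612), LRAT (0.67, SE 0.61, adjusted p = 0.538), RBP4 (0.31, SE 0.38, adjusted p = 0.659), ALDH1A2 (-0.11, SE 0.49, adjusted p = 0.924) and CRABP1 (-0.69, SE 0.31, adjusted p = 0.176) did not pass. ALDH1A1 and DHRS3 were thus 2 of 8 members higher without overlap, where 7.38% of all genes were. Each hepatocyte marker sum above storage number 14 was 2079569 or higher, against 1099709 to 2612989 up to 14, and 1 of 8 markers separated the ranges. Stellate cell markers summed to 34120 to 45425 above 14 and 10220 to 28956 up to 14. Erythroid markers summed to 1438 to 2558 above 14 and 12072 to 858868 up to 14. The part of these cell type differences was not tested.

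The ALDH1A1 and TTR calls did not hold when libraries were counted by run. Each mean was taken over all liver sorts of a run, and the fit had no sort term. Since the sorts differ between the ranges, fewer units and the missing term cannot be told apart. With 1 mean per run, chosen after seeing the data, ALDH1A1 was higher by 1.61 (limma adjusted p = 0.0738) and TTR by 1.05 (adjusted p = 0.182). Both calls were also lost without S18 (limma adjusted p = 0.0638 and 0.0960) or without S19 (0.0845 and 0.139), and the TTR call without S23 (0.0563).

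Pathway genes outside the 9 showed larger steps between the same ranges, and are named after their values were seen. CYP26A1, which breaks down retinoic acid, stood at 0 to 5.30 normalized counts in the 8 liver libraries up to 14 and at 154 to 200 in the 7 above (log2 difference 6.67, SE 0.63, limma adjusted p = 0.000137). ADH4, a retinol dehydrogenase, stood at 11.2 to 77.1 and 3420 to 11270 (7.75, SE 0.65, limma adjusted p = 6.4e-05). RDH16 was higher by 1.89 (SE 0.39, limma adjusted p = 0.0157). With 1 mean per run CYP26A1 (6.43, limma adjusted p = 0.0134) and ADH4 (7.85, adjusted p = 0.0111) still passed and RDH16 (1.69, adjusted p = 0.0864) did not. The RDH16 call was also lost without S18, S19 or S23 (limma adjusted p = 0.0879, 0.143 and 0.0515).

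**Figure D5:**
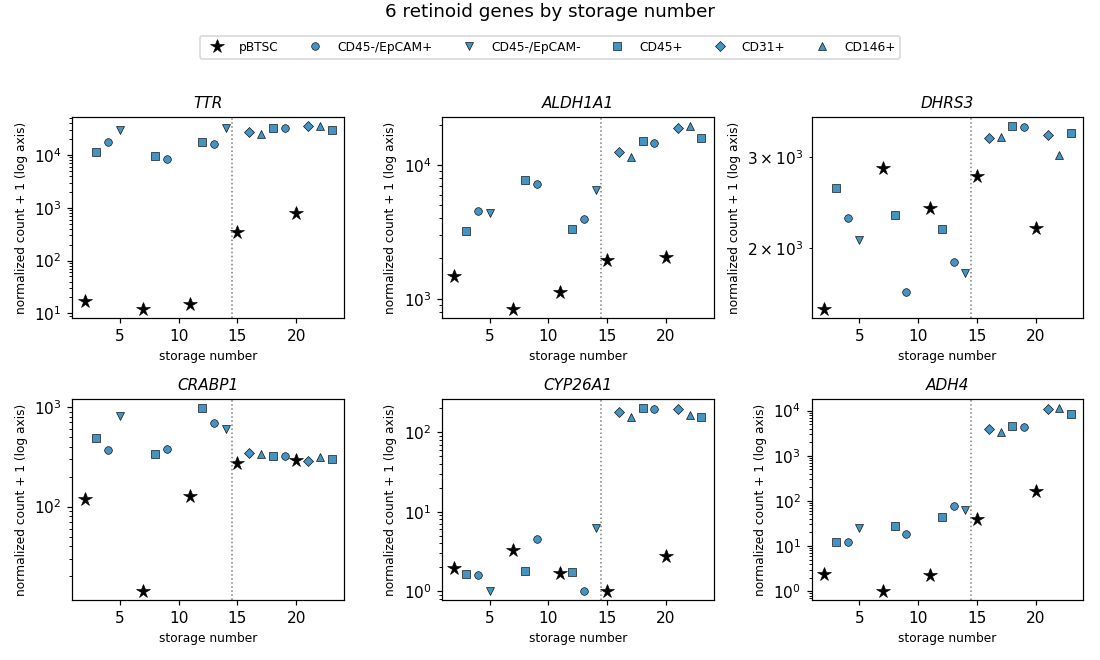
Normalized count + 1 (log axis) of 6 retinoid genes by storage number, with stars for pBTSC and other symbols for the liver sorts; the dotted line lies between storage numbers 14 and 15. Liver CYP26A1 lay between 0 and 5.30 to the left and between 154 and 200 to the right, while pBTSC CYP26A1 was at most 2.26 throughout.

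Within the pBTSCs, 8 members were tested between S15 and S20 and the other 3 libraries, LRAT being under the filter, and limma called 264 of 14912 genes (1.77%, and 1.37% in the upward direction). TTR was higher in S15 and S20 by 5.19 (SE 0.42, limma adjusted p = 0.00643), with the values given before, beside the hepatocyte markers that moved with them. The other 7 did not pass. ALDH1A1 was at 1944 and 2068 normalized counts against 837 to 1478 (0.84, SE 0.23, limma adjusted p = 0.147), CRABP1 at 274 and 293 against 13.2 to 126 (2.25, SE 0.94, adjusted p = 0.270), and STRA6 at 25.1 and 3.35 against 22.9 to 50.4 (-1.71, SE 0.83, adjusted p = 0.326). BCO1 differed by -0.01 (SE 0.44, limma adjusted p = 0.997). Of the 32 other pathway genes tested there, ADH4 (5.50, SE 0.92, limma adjusted p = 0.0444) and RARRES2 (1.44, SE 0.24, adjusted p = 0.0449) passed, both named after their values were seen, and both calls were lost without S2 or without S7. The ADH4 call was also lost without S11, and the RARRES2 call without S15 or S20. With 0.1 added before the logarithm neither passed, and RARRES2 also did not with no filter, the stricter filter or either rescaling (limma adjusted p = 0.0516 to 0.0632).

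The pBTSC minus liver difference itself was then compared between the ranges, as an interaction. This fit had no sort term. The CD45-/EpCAM- libraries lie only up to storage number 14, and the CD31+ and CD146+ libraries only above it. The part of the sorts in the interaction values was not tested. Limma called 384 of 15576 genes (2.47%, and 1.56% upward) and 2 of the 9 members, both upward. For TTR the difference was smaller in size above storage number 14, by 4.24 (SE 0.52, limma adjusted p = 3.7e-05). For CRABP1 it was smaller by 3.03 (SE 0.73, limma adjusted p = 0.0271): the log2 difference from the liver of the same run was -2.15, -4.66 and -2.54 for S2, S7 and S11 and -0.27 and -0.03 for S15 and S20. The CRABP1 call was lost without S15 (limma adjusted p = 0.132), without S20 (0.114) and without the 3 shallow libraries (0.109). For BCO1 (-0.40, SE 0.35, limma adjusted p = 0.550), RBP4 (0.75, SE 0.57, adjusted p = 0.483) and LRAT (0.87, SE 0.80, adjusted p = 0.571) the interaction did not pass. With 1 mean per run, TTR (4.13, limma adjusted p = 0.183) and CRABP1 (2.97, adjusted p = 0.218) did not pass either.

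The genes whose values followed each member most closely were read as Pearson's r of log2(normalized count + 1) over the 17 deeper libraries, with no test. These libraries share the large step between pBTSCs and liver, so r over the 13 liver libraries among them is given too. For BCO1 they were APOE (r = 0.994, in liver 0.894), C4BPB and ADTRP, for RBP4 TFR2 (0.996, in liver 0.946), F10 and ATF5, and for TTR APOC4 (0.999, in liver 0.980), ALB and C8B. For LRAT they were TMEFF2 (0.988, in liver 0.889), GDF2 and ADAMTSL2 (0.987, in liver 0.966), and for ALDH1A1 MMP19 (0.981, in liver 0.962), TP63 and DECR1. STRA6 was followed by UCHL1 (0.947, in liver 0.834), LRFN4 and SRPK3, and ALDH1A2 by FMOD (0.854, in liver 0.852), MYZAP and RBP7. DHRS3 had PDK2 (0.887, in liver 0.925), EFNA1 and AK8, and CRABP1 had GPBAR1 (0.902, in liver 0.599), AGA and SAT1. Among the members themselves, BCO1 and RBP4 had r = 0.981 over the 17 libraries and 0.684 within liver, whereas RBP4 and LRAT went from 0.917 to -0.72.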

How the data were processed

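Poly(A) RNA from 20 pig libraries was extracted with RNeasy and made into stranded libraries. The values, deposited by the authors for each gene and library in 1 table, are normalized counts (a signal of 0 or more). The submitters' processing notes name STAR, Salmon and DESeq2, and versions, genome build and annotation are not given in the sources used here. The deposited mean over all libraries was not used. Depth was estimated as a library's total divided by its most frequent low value, taken as the worth of 1 read. Since the values do not come out as whole reads, no count test was run.

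Groups came from the labels. As the study used limma, version 3.58.1 of it (R 4.3.3) was fitted to log2(normalized count + 1), with a mean-variance trend in eBayes and p-values adjusted by Benjamini-Hochberg across every gene tested. A gene was tested where 2 or more libraries had 10 or more normalized counts. Calls needed an adjusted p under 0.05 and an absolute log2 difference above 1. The storage range fits used the 15 liver libraries, the 5 pBTSC libraries or all 20. The added 1 understates differences of low genes. The step was tested on simulated data. Tables were made with Python 3.11.15, numpy 2.4.6, pandas 2.3.3 and scipy 1.17.1, and figures with matplotlib 3.10.9.

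The members, gene lists, marker lists and storage ranges were chosen with earlier results of these data known. Named genes were all members, pathway genes called in either comparison of pBTSCs with CD45- liver cells, marker genes beside a result, and the 3 named genes most correlated with each member. Alternatives changed the pseudocount, filter, scaling, libraries, weights, covariates and fold threshold, and left out each replicate. No sequence or coordinate is given.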

Additional observations from a re-analysis of the deposited data

Results flagged for a closer look

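In the CD45+ liver libraries the LRAT value of S3 (204 normalized counts) stood apart from the other 4 by Dixon's test, as did the ALDH1A2 value of S13 (123) among the 4 CD45-/EpCAM+ libraries. S13 is a shallow library, with 3 reads worth 77.6 normalized counts. Of 27 combinations of gene and group checked, 2 were marked, and chance marks about 1 in 20.

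The pBTSC minus liver difference differed between storage numbers above 14 and up to 14, by limma's interaction term, for TTR (4.24), CRABP1 (3.03) and CYP26A1 (-6.88, SE 0.80, limma adjusted p = 2.1e-05). The sign is that of the difference above 14 minus that up to 14. For TTR and CRABP1 the pBTSC values were higher above 14, and for CYP26A1 the liver values were. None of the 3 passed with 1 mean per run (limma adjusted p = 0.183, 0.218 and 0.0625).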

How the results depend on the processing

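In the comparison of pBTSCs with liver sorts the number of members past the thresholds stayed at 6 or 7 against both CD45- sorts under every alternative that kept all replicates, and leaving out each replicate in turn gave 6 to 7 against CD45-/EpCAM+ and 5 to 8 against CD45-/EpCAM- cells. Rescaling to the same total removed ALDH1A1 and added ALDH1A2 against CD45-/EpCAM- cells (2 higher, 5 lower). The pathway counts stayed within 15 to 22 and 15 to 19, and leaving out a replicate gave 15 to 18 and 13 to 18. With upper quartile scaling the pathway split was 8 higher and 7 lower against CD45-/EpCAM+ cells. No member was called between liver sorts under any alternative. In the liver by storage number, leaving out a replicate gave 0 to 2 members, and 1 mean per run gave 0. In the pBTSCs by storage number a filter of 50 or more normalized counts in 4 or more libraries gave 0, since TTR reaches 50 in only 2 of the 5 pBTSC libraries, while leaving out a replicate gave 1 each time. For the interaction the 3 shallow libraries left out gave 1 (CRABP1 lost, limma adjusted p = 0.109), leaving out a replicate gave 1 to 2 (CRABP1 lost without S15, 0.132, or without S20, 0.114), and 1 mean per run gave 0. The cause of these changes was not tested.

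The counts over all genes moved by more than 1.5 times in some fits. Between CD45-/EpCAM+ and CD45-/EpCAM- cells 436 became 879 without the 3 shallow libraries, 718 with the same total, 29 with the same upper quartile, 39 with array weights and 0 with only those groups in the fit. For the liver by storage number 564 became 1101 without the shallow libraries, 1927 with array weights, 1168 with no fold threshold and 152 with 1 mean per run. For the pBTSCs 264 became 24 without S15, 59 with the stricter filter and 176 with 0.1 added before the logarithm, and for the interaction 384 became 1493 with array weights and 0 with 1 mean per run. Against CD45-/EpCAM+ cells 3905 became 6029 with no fold threshold. Leaving out a replicate moved all these counts as well, and also those for CD31+ and CD146+ against CD45-/EpCAM+ cells and for pBTSCs against CD45-/EpCAM- cells.

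Over single genes and settings, 83 values no longer passed the thresholds, and no value that passed changed sign. The 83 leave out the members in pBTSCs against the CD45- sorts, whose lost calls are given above. No pairing by replicate number was made because the labels give no numbers that the groups share. With runs of storage numbers as a block, 7 and 7 members and 19 and 17 pathway genes were called, and CRABP2 and RXRA no longer passed against CD45-/EpCAM- cells.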
